A study of Mus musculus with 3 samples.

Results

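Inverted junctions within the switch region Sμ are joins in which a broken end near the start of Sμ was fused to another part of Sμ read in the opposite direction. They were chosen as all junctions whose joined sequence (the prey) lay on the plus strand of chromosome 12 between 114661500 and 114671500 (mm9 coordinates as the files give them), the authors' Sμ window. The 3 libraries held 246 such junctions among 2995 junctions of all kinds. DNA-PKcs-/- replicate 5 had 114 of 842, DNA-PKcs PQR/PQR replicate 1 had 87 of 1681 and PQR/PQR replicate 2 had 45 of 472. All came from genomic DNA of mouse splenic B cells (CD43-, strain 129, with IgH and IgK loci already assembled in the animals), cultured for 4 days in the presence of IL-4 (20 ng/mL) and anti-CD40 (1 ng/mL), a pair of stimuli that induces switching to IgG1 and IgE. One genotype lacks DNA-PKcs, a protein kinase that acts in classical end joining of DNA breaks, and the other carries the PQR allele of this kinase on both chromosomes. Wild-type cells are not analysed here. No label ties the PQR/PQR libraries to separate animals, so differences between them may be technical. The p-values between libraries cover counting error of junctions only. For each genotype there is also an authors' pool that contains these libraries, with 1296 inverted Sμ junctions for DNA-PKcs-/- and 148 for PQR/PQR. Pool values are given apart, as the authors' pooled values.

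During class switch recombination the enzyme AID leads to breaks in the repetitive switch regions, and ends of Sμ are joined to ends of a downstream region or to other ends in Sμ itself. A prey downstream that keeps the bait's direction leaves an internal deletion, and a prey read backwards gives an inversion. All same-direction joins are called deletional here, also the few with a prey upstream. Ends joined by the classical pathway tend to abut or to share few bases, whereas alternative joining more often uses longer shared bases at the join (microhomology, MH). High-throughput genome-wide translocation sequencing reads these joins from a fixed primer at the 5′ part of Sμ, the bait, across the join into the prey.

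The bait is shown because its sequence recurs at a set of inverted joins. It was read from the deposited junctions of DNA-PKcs-/- replicate 5 as the majority base at each position, with at least 9 reads behind each base, and runs along the minus strand from 114669257 down to 114669143 of chromosome 12. The capitals mark a perfect palindrome of 20 bases (114669183 to 114669202) and the site of AflII (114669149 to 114669154), the enzyme used to cut unrearranged DNA. The nested primer forms its first 21 bases.
bait: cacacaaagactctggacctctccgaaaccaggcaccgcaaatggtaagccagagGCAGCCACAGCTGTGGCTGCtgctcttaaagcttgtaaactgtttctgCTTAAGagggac

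Inverted junctions of each kind looked as follows in the reads of the 2 libraries with a list of single Sμ junctions. For each, the join with the longest MH, the one with the longest insertion and the direct join nearest to its bait end are printed from bait to prey, 5′ to 3′, with up to 25 bases on each side. Capitals mark the MH or the inserted bases, and at direct joins the last bait base and the first prey base.
DNA-PKcs-/- replicate 5, MH of 10 bp: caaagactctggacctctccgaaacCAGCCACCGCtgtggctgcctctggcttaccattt
DNA-PKcs-/- replicate 5, insertion of 20 bp: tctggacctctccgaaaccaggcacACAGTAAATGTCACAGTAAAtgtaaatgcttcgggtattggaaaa
DNA-PKcs-/- replicate 5, direct: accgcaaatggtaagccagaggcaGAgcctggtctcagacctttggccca
PQR/PQR replicate 2, MH of 7 bp: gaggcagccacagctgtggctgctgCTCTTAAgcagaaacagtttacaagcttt
PQR/PQR replicate 2, insertion of 14 bp: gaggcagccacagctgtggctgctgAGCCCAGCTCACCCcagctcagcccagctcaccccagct
PQR/PQR replicate 2, direct: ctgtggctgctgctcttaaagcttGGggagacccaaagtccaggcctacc
In both joins with the longest MH the prey was the bait itself read backwards, starting at 114669184, 35 bp from the bait end, in DNA-PKcs-/- replicate 5 and at 114669147, 27 bp from the bait end, in PQR/PQR replicate 2. The MH of 10 bp differed by at least 1 base from both the bait and the prey, so it is an overlap of imperfect alignments. It was the only such case among 76 inverted MH joins of DNA-PKcs-/- replicate 5 that could be compared with the bait sequence, and there was none among 32 of PQR/PQR replicate 2. The insertion of 20 bp lay 471 bp upstream of its bait end (prey at 114669693) and that of 14 bp lay 3718 bp downstream (prey at 114665463). The direct joins nearest to the bait lay 186 and 185 bp upstream of it (preys at 114669385 and 114669353).

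Inversion took up a larger share of the joins within Sμ than of the joins to Sγ1 or Sε, the switch regions of IgG1 and IgE, in every library. Of 287 Sμ junctions of DNA-PKcs-/- replicate 5, 39.7% were inverted (95% Wilson interval 34.2 to 45.5), of 468 of PQR/PQR replicate 1, 18.6% (15.3 to 22.4), and of 122 of PQR/PQR replicate 2, 36.9% (28.8 to 45.7). It exceeded the share in Sγ1 by 24.6 percentage points (95% interval of the difference 16.8 to 31.7), 9.03 points (3.81 to 13.8) and 20.0 points (7.26 to 31.1). By two-sided Fisher's exact tests within each library the p adjusted over 21 tests was 1.08e-08, 0.00252 and 0.00565. Against Sε the excess was 34.8, 13.9 and 29.2 points, with an adjusted exact p of 1.10e-13, 9.68e-14 and 1.70e-08. These shares cover the whole Sμ window, including preys upstream of the bait end, where few junctions were deletional. Over 3000 bp downstream of it the inverted share of Sμ was 14.6%, 12.7% and 15.0%. In all of Sγ1 it was 15.2%, 9.56% and 16.9%, and in Sε 4.88%, 4.66% and 7.64%. The shares over 3000 bp downstream were not tested against these. Of inverted IgH junctions Sμ supplied 68.7% (114 of 166), 56.5% (87 of 154) and 63.4% (45 of 71) in the libraries and 64.3% (1296 of 2014) in the DNA-PKcs-/- pool, but 48.1% (148 of 308) in the PQR/PQR pool. Of IgH junctions in both orientations it supplied 287 of 717, 468 of 1559 and 122 of 349 in the libraries. In the DNA-PKcs-/- and PQR/PQR pools these were 3527 of 11975 and 788 of 3906. Intervals and tests cover counting error only, since each rests on the junctions of single libraries. The reads carry no molecular identifiers, so junctions may not all be separate molecules and counting error may be understated.

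The inverted share of Sμ was higher in DNA-PKcs-/- replicate 5 than in 1 of the 2 PQR/PQR libraries, and these differed from each other. Against PQR/PQR replicate 1 the difference was 21.1 points (14.5 to 27.8, adjusted Fisher's exact p = 8.30e-09). Against PQR/PQR replicate 2 it was 2.84 points (-7.57 to 12.7, adjusted exact p = 1 over 21 tests between libraries), and PQR/PQR replicate 1 differed from PQR/PQR replicate 2 by -18.3 points (-27.7 to -9.41, adjusted exact p = 4.76e-04). By their read names, PQR/PQR replicate 1 shared its sequencing run with DNA-PKcs-/- replicate 5, and PQR/PQR replicate 2 came from another run. With 1 library against 2 there are 3 possible splits, so a test between genotypes cannot give an exact p below 0.333, and all tests here compare libraries. In the authors' pools the share was 36.7% (1296 of 3527) for DNA-PKcs-/- and 18.8% (148 of 788) for PQR/PQR. Junctions of the PQR/PQR pool that lie outside both libraries had 8.08% inverted (16 of 198, 5.04 to 12.7), but they cover another stretch of Sμ, since 0 of 182 deletional and 2 of 16 inverted preys lay within 1000 bp of the bait end.

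The preys of inverted junctions lay on either side of the bait end, whereas deletional preys lay almost wholly downstream of it. This contrast is in part given by the definition, since only a prey downstream can leave an internal deletion. IgH is read from high to low coordinates here, so upstream means a higher coordinate than the bait end, taken as the median bait end of each library (114669198, 114669198 and 114669201). Upstream lay 41 of the 114 inverted preys of DNA-PKcs-/- replicate 5 (36.0%, 27.7 to 45.1), 25 of the 87 of PQR/PQR replicate 1 (28.7%, 20.3 to 39.0) and 9 of the 45 of PQR/PQR replicate 2 (20.0%, 10.9 to 33.8). Among deletional junctions they were 3 of 173, 7 of 381 and 2 of 77. The share was highest in DNA-PKcs-/- replicate 5, by 7.23 points (-5.91 to 19.7) and 16.0 points (-0.117 to 28.9), and neither difference passed the threshold (adjusted Fisher's exact p = 1 and 0.413).

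Inverted preys were centred near the bait in every library. With downstream distances as positive values, the quartiles of DNA-PKcs-/- replicate 5 were -239 and 1233 bp, around a median of 310.5 bp. In PQR/PQR replicate 1 they were -101 and 1303 bp around a median of 717 bp, and in PQR/PQR replicate 2 they were 16 and 1140 bp around 493 bp. The farthest downstream prey lay at 6752, 4942 and 3895 bp and the farthest upstream one at 1612, 1509 and 1505 bp.

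**Figure D1:**
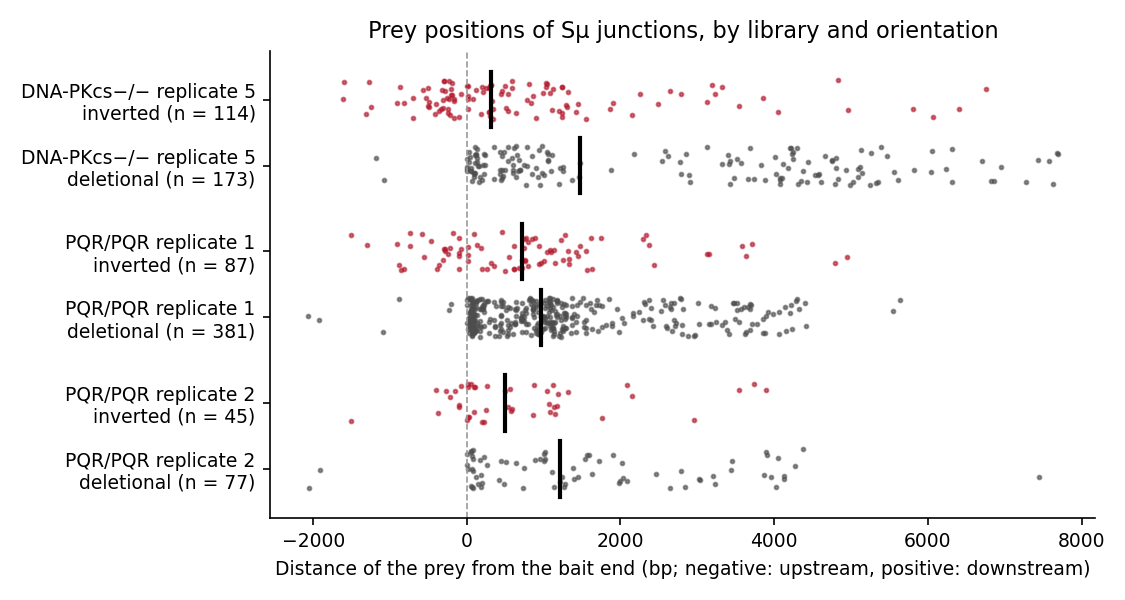
Distance of every Sμ prey from the median bait end of its library in bp, negative upstream and positive downstream, with 1 point per junction (scattered vertically for visibility) and a black bar at the median. Inverted preys (red) lie on both sides of the bait end, while few deletional preys (grey) lie upstream, and the deletional preys of DNA-PKcs-/- replicate 5 reach 7692 bp downstream.

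The share of inverted preys within 1000 bp of the bait end was 63.2% (72 of 114), 62.1% (54 of 87) and 62.2% (28 of 45), and that over 3000 bp away was 11.4% (13 of 114), 8.05% (7 of 87) and 6.67% (3 of 45). The difference of DNA-PKcs-/- replicate 5 from PQR/PQR replicate 1 was 1.09 points within 1000 bp (-12.1 to 14.5) and 3.36 points over 3000 bp (-5.57 to 11.6), and from PQR/PQR replicate 2 it was 0.936 points (-14.7 to 17.7) and 4.74 points (-7.37 to 13.1). The adjusted p by Fisher's exact test was 1 for all 4, and intervals this wide leave room for moderate differences. Preys of DNA-PKcs-/- replicate 5 far downstream in Sμ were mostly deletional. Of its deletional junctions 43.9% lay over 3000 bp away (76 of 173), and its inverted junctions differed from them by -32.5 points (-41.3 to -22.4, adjusted Fisher's exact p = 1.16e-08 within the library). Its inverted preys were also more often within 1000 bp than its deletional ones, by 22.1 points (10.3 to 33.0, adjusted exact p = 8.69e-04). In the PQR/PQR libraries the same comparisons gave 10.6 and 20.7 points within 1000 bp (adjusted exact p = 0.106 and 0.0654) and -4.55 and -15.4 points over 3000 bp (0.318 and 0.0654), none past the threshold.

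The 500 bp bin around the bait end, from 114669001 to 114669500, held most inverted preys in DNA-PKcs-/- replicate 5 (27 of 114) and PQR/PQR replicate 2 (16 of 45) and was the next after the leading bin in PQR/PQR replicate 1 (17 of 87). The other leading bins were 114668501 to 114669000 (21) and 114669501 to 114670000 (15) in DNA-PKcs-/- replicate 5, and 114668001 to 114668500 (20) and 114667501 to 114668000 (13) in PQR/PQR replicate 1. In PQR/PQR replicate 2 they were 114668001 to 114668500 (10) and 114668501 to 114669000 (8). The bin from 114669501, wholly upstream of the bait, held 15 inverted and 0 deletional preys in DNA-PKcs-/- replicate 5. By distance, the inverted share up to 500 bp upstream was 96.4% (27 of 28), 83.3% (15 of 18) and 8 of 8. Up to 500 bp downstream it was 35.8% (24 of 67), 9.23% (12 of 130) and 36.8% (14 of 38), and the Wilson interval of PQR/PQR replicate 1 did not overlap those of the other libraries there. Beyond 3000 bp downstream the inverted share was 14.6% (13 of 89), 12.7% (7 of 55) and 15.0% (3 of 20).

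**Figure D2:**
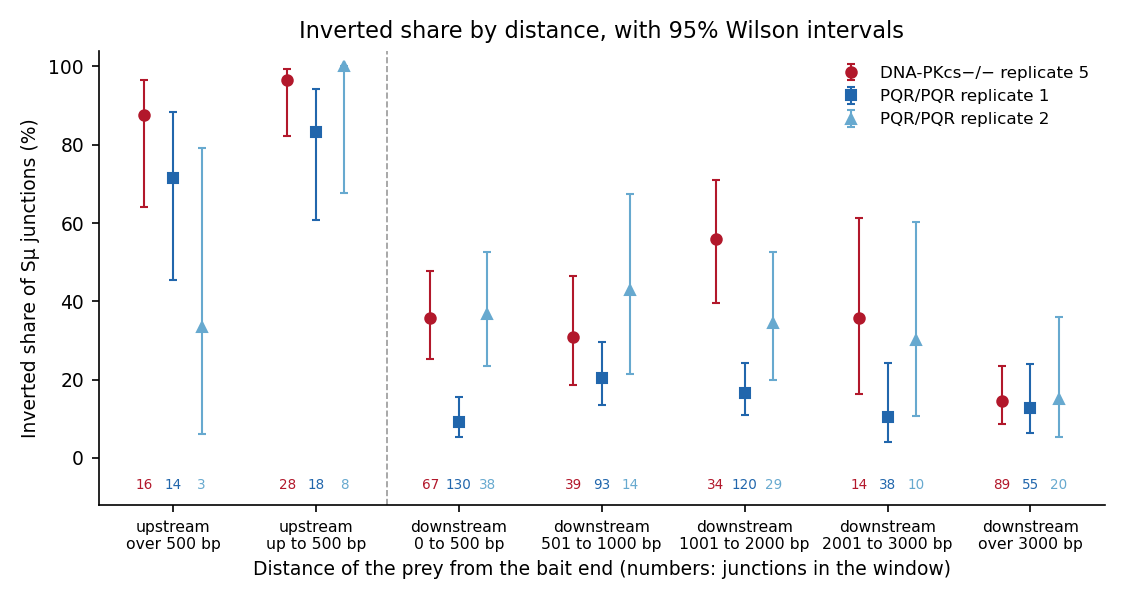
Inverted share of Sμ junctions in percent, by distance window of the prey from the bait end, with 95% Wilson intervals and the number of junctions per window at the foot. The shares are high upstream in windows with more than 3 junctions, and between 0 and 500 bp downstream PQR/PQR replicate 1 lies at 9.23% against 35.8% and 36.8% in the other libraries.

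Directly around the bait end there was a gap, and close to it were joins in which the bait was joined to its own sequence read backwards. Measured from each junction's own bait end, no inverted prey lay between 17 bp downstream and 56 bp upstream in either listed library. Within 60 bp lay 7 inverted preys of DNA-PKcs-/- replicate 5 and 10 of PQR/PQR replicate 2. Every one of these joins had MH, with a mean of 4.29 ± 1.08 bp and 4.20 ± 0.442 bp (SEM over junctions), and none was direct or had an insertion. The mean of DNA-PKcs-/- replicate 5 includes the MH of 10 bp shown above, an overlap of imperfect alignments. In 6 and 6 of them the aligned prey ran back across the bait end. Their median aligned prey was short, 42 and 30 bp, against 103 and 102 bp for preys over 60 bp downstream.

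Some inverted joins recurred in both lists with the same bait end and prey position, although the libraries differ in genotype and sequencing run. There were 7 shared inverted junctions, 6.14% of the 114 in DNA-PKcs-/- replicate 5 and 15.6% of the 45 in PQR/PQR replicate 2, against 2 shared deletional junctions (1.16% of 173 and 2.60% of 77). Each had an MH of 3 to 7 bp. Their preys began at 114667886, 114669184, 114669185, 114669188, 114669196, 114669276 and 114669299. The first of these lay 1305 bp downstream and the last 103 bp upstream of its bait end. That at 114669276 lay 56 bp upstream, before the first base of the bait. The following 4 are shown because their prey positions occurred in all 3 libraries. Their printed letters were the same in both lists, capitals mark the MH, and in those at 114669184 and 114669185 the prey starts inside the palindrome of the bait.
prey 114669184, bait end 114669226: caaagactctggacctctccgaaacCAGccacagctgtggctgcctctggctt
prey 114669185, bait end 114669206: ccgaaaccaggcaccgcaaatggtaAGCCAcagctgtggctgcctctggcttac
prey 114669276, bait end 114669220: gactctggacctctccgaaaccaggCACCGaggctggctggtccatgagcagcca
prey 114669299, bait end 114669196: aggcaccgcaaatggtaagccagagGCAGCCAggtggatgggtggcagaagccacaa
Position 114669299 was the only one with 3 or more inverted junctions in a library. It held 1 in DNA-PKcs-/- replicate 5, 3 in PQR/PQR replicate 1 and 1 in PQR/PQR replicate 2, and 6 in the PQR/PQR pool. Outside its library the DNA-PKcs-/- pool had no prey at any of these 4 positions, among 1182 inverted junctions. It had the bait end and prey of 1 of 45 inverted and 7 of 77 deletional junctions of PQR/PQR replicate 2. For DNA-PKcs-/- replicate 5 these were 11 of 114 inverted and 14 of 173 deletional junctions. Preys starting inside the palindrome were 5 of 114, 3 of 87 and 4 of 45 inverted junctions in the libraries and 6 of 1296 in the DNA-PKcs-/- pool, of which 5 belong to replicate 5. How these joins came to recur was not tested. Without the 7 shared inverted junctions the inverted share of Sμ was 38.2% in DNA-PKcs-/- replicate 5 and 33.0% in PQR/PQR replicate 2. Upstream preys were then 36.4% and 18.4% of inverted ones.

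Among inverted junctions no difference in join type between the 3 libraries passed the threshold. Direct joins, in which bait and prey abut, were 13 of 114 inverted junctions of DNA-PKcs-/- replicate 5 (11.4%, 6.79 to 18.5), 15 of 87 of PQR/PQR replicate 1 (17.2%, 10.7 to 26.5) and 5 of 45 of PQR/PQR replicate 2 (11.1%, 4.84 to 23.5). An MH of 4 bp or more was present in 18.4% (21 of 114, 12.4 to 26.5), 23.0% (20 of 87, 15.4 to 32.9) and 17.8% (8 of 45, 9.29 to 31.3). Insertions, unaligned bases between bait and prey, were found in 19.3% (22 of 114), 17.2% (15 of 87) and 17.8% (8 of 45). DNA-PKcs-/- replicate 5 differed from PQR/PQR replicates 1 and 2 by -5.84 points (-16.2 to 3.82) and 0.292 points (-12.9 to 9.79) in direct joins, and by -4.57 points (-16.1 to 6.53) and 0.643 points (-14.2 to 12.4) in MH of 4 bp or more. In insertions it differed by 2.06 points (-9.10 to 12.5) and 1.52 points (-13.4 to 13.3). Each of these 6 differences had an adjusted exact p of 1, and differences within these intervals were not detectable at this depth.

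In both PQR/PQR libraries inverted joins were less often direct than the deletional joins of the same library, and in DNA-PKcs-/- replicate 5 no join type passed the threshold. In PQR/PQR replicate 1 direct joins were 29.4% of deletional junctions (112 of 381) and 17.2% of inverted ones, a difference of -12.2 points (-20.2 to -1.91, adjusted Fisher's exact p = 0.0438). With insertions left out of the denominator it was -12.6 points and no longer passed (adjusted exact p = 0.0654). In PQR/PQR replicate 2 they were 32.5% (25 of 77) and 11.1%, a difference of -21.4 points (-34.1 to -5.80, adjusted exact p = 0.0187). MH of 4 bp or more in PQR/PQR replicate 1 was at 5.25% of deletional (20 of 381) and 23.0% of inverted junctions, a difference of 17.7 points (9.68 to 27.8, adjusted exact p = 7.26e-06). In PQR/PQR replicate 2 it was 7.79% (6 of 77) and 17.8%, a difference of 9.99 points (-1.80 to 24.2, adjusted exact p = 0.183). Within 60 bp of their own bait end, 5 of its 10 inverted joins had such MH. Over 60 bp downstream 2 of 27 did. In DNA-PKcs-/- replicate 5 these were 3 of 7 and 12 of 67, and these splits were not tested. DNA-PKcs-/- replicate 5 had 7.51% direct deletional joins (13 of 173) against 11.4% inverted, a difference of 3.89 points (-2.86 to 11.7, adjusted exact p = 0.327), and 16.8% (29 of 173) against 18.4% with MH of 4 bp or more, 1.66 points (-7.05 to 11.1, adjusted exact p = 0.789). Insertions were 0.801, 5.17 and 11.3 points more frequent among inverted joins, with an adjusted exact p of 0.878, 0.267 and 0.103.

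**Figure D3:**
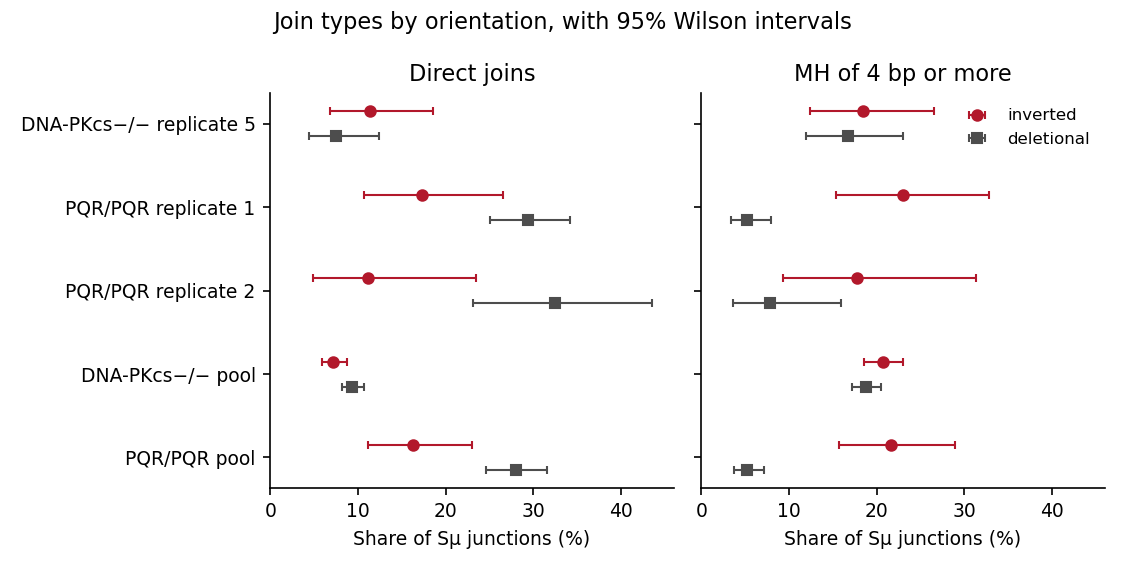
Share of direct joins (left) and of joins with MH of 4 bp or more (right) in percent of inverted (red circles) and deletional (grey squares) Sμ junctions, with 95% Wilson intervals, in each library and in the authors' pools, which contain the libraries. Direct joins are 29.4% and 32.5% of deletional but 17.2% and 11.1% of inverted junctions in the PQR/PQR libraries, and 7.51% and 11.4% in DNA-PKcs-/- replicate 5.

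DNA-PKcs-/- replicate 5 differed from both PQR/PQR libraries in the direct share of deletional joins. The test of whether this gap is unlike that of inverted joins did not pass against either library. The deletional direct share differed by -21.9 points from PQR/PQR replicate 1 (-27.5 to -15.3) and by -25.0 points from PQR/PQR replicate 2 (-36.4 to -14.3), with a Fisher's exact p of 9.45e-09 and 4.58e-06 adjusted over 6 tests chosen after the data had been seen. Zelen's exact test, also chosen then, asks whether inverted and deletional joins differ by the same odds ratio in 2 libraries. For direct joins its p, adjusted over 9 tests, was 0.111 against PQR/PQR replicate 1 and 0.0519 against PQR/PQR replicate 2. For MH of 4 bp or more it was 0.00815 and 0.434, and for insertions 0.496 and 0.404. The comparison that passed, long MH against PQR/PQR replicate 1, is the one within the shared sequencing run. It no longer passed when the shared inverted junctions were left out, with the 7 preys of PQR/PQR replicate 1 at shared positions all taken to have long MH (adjusted exact p = 0.0671).

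Without the 7 shared inverted junctions, and with deletional ones as they were, the direct share of inverted joins was 13.2% in PQR/PQR replicate 2 (5 of 38), and its difference from deletional joins no longer passed (adjusted Fisher's exact p = 0.0659). MH of 4 bp or more was then 10.5% there (4 of 38) and 15.9% in DNA-PKcs-/- replicate 5 (17 of 107). The list of single Sμ junctions of PQR/PQR replicate 1 was not analysed here, and 7 of its 87 inverted preys lie at shared positions. If all 7 had an MH of 4 bp or more and were left out, 13 of 80 would remain (16.2%, unadjusted Fisher's exact p = 0.00153 against its deletional junctions), and if none was direct, 15 of 80 would be direct (18.8%, unadjusted exact p = 0.0549).

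Shorter MH differed by its length, as shares that were not tested. An MH of exactly 1 bp was found in 14.9%, 13.8% and 13.3% of inverted joins, and in 13.9%, 30.4% and 29.9% of deletional joins of DNA-PKcs-/- replicate 5, PQR/PQR replicate 1 and PQR/PQR replicate 2. An MH of 2 or 3 bp made up 36.0% (41 of 114), 28.7% (25 of 87) and 40.0% (18 of 45) of inverted joins against 43.4%, 22.8% and 23.4% of deletional ones. Direct joins and MH of 1 bp together were thus less frequent among inverted than among deletional joins in both PQR/PQR libraries.

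**Figure D4:**
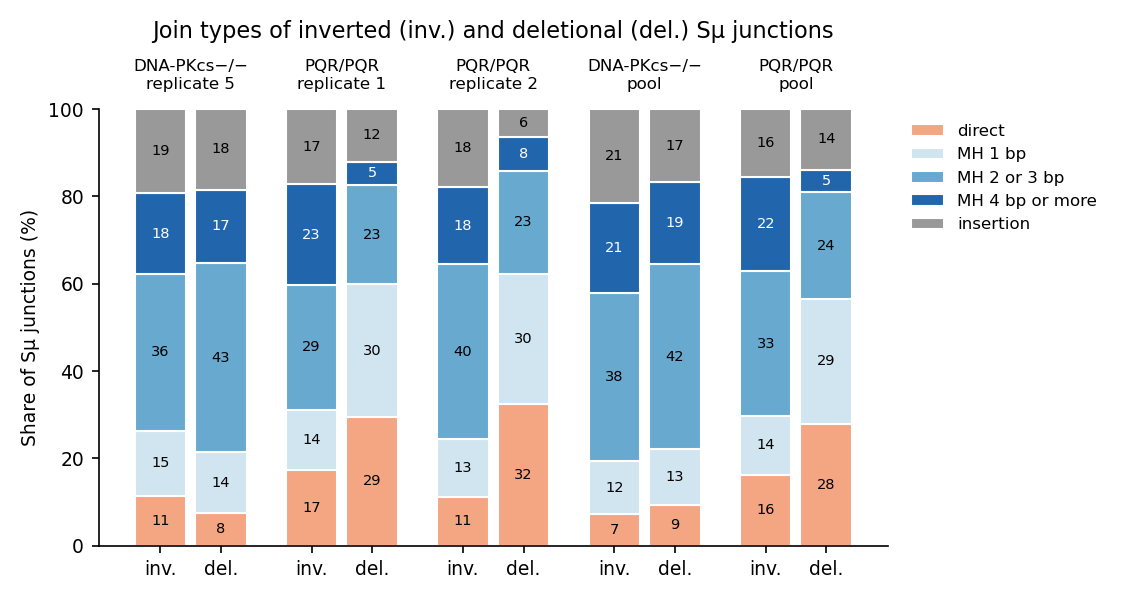
Join types as stacked shares of inverted (inv.) and deletional (del.) Sμ junctions in percent, from direct joins at the bottom through MH of rising length to insertions, in each library and in the authors' pools, which contain the libraries. Inverted bars have 11.1% to 17.2% direct joins in the libraries, and the deletional bars of PQR/PQR show more direct joins (29.4% and 32.5%) and more MH of 1 bp (30.4% and 29.9%).

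Mean MH, over joins without an insertion and with direct joins counted as 0, was 2.55 ± 0.208 bp (SEM over 92 inverted junctions) in DNA-PKcs-/- replicate 5 and 2.62 ± 0.316 bp (37 junctions) in PQR/PQR replicate 2. The deletional joins had 2.41 ± 0.122 bp (140 junctions) and 1.38 ± 0.190 bp (72 junctions). Inverted joins over 60 bp downstream of their own bait end had 2.45 ± 0.218 bp (53 junctions) and 1.91 ± 0.335 bp (22 junctions). The most frequent MH length of inverted joins was 3 bp in both, with 22 and 10 junctions. Without the shared inverted junctions 3 bp no longer led, with 19 joins against 19 of 2 bp in DNA-PKcs-/- replicate 5 and 7 against 8 in PQR/PQR replicate 2, and mean MH was 2.40 ± 0.212 bp (85 junctions) and 2.20 ± 0.323 bp (30 junctions). The most frequent class of deletional joins was 2 bp in DNA-PKcs-/- replicate 5 (41) and direct in PQR/PQR replicate 2 (25). Single bases, chiefly C and G, were the commonest MH sequences of inverted joins in DNA-PKcs-/- replicate 5 (7 and 5 of 79), and C and CAG in PQR/PQR replicate 2 (3 each of 32). Inserted bases numbered 1 to 20 with a median of 5 in DNA-PKcs-/- replicate 5 and 1 to 14 with a median of 4.5 in PQR/PQR replicate 2. The authors' separate sheet of large insertions added 2 inverted Sμ junctions, with 31 and 33 bp, in DNA-PKcs-/- replicate 5 and none in either PQR/PQR library. It held 11 in the DNA-PKcs-/- pool and 0 in the PQR/PQR pool, beside 1296 and 148 counted inverted Sμ junctions. Of deletional Sμ junctions it held 1 in PQR/PQR replicate 1 and none in the other libraries. In the DNA-PKcs-/- and PQR/PQR pools these were 15 and 2.

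**Figure D5:**
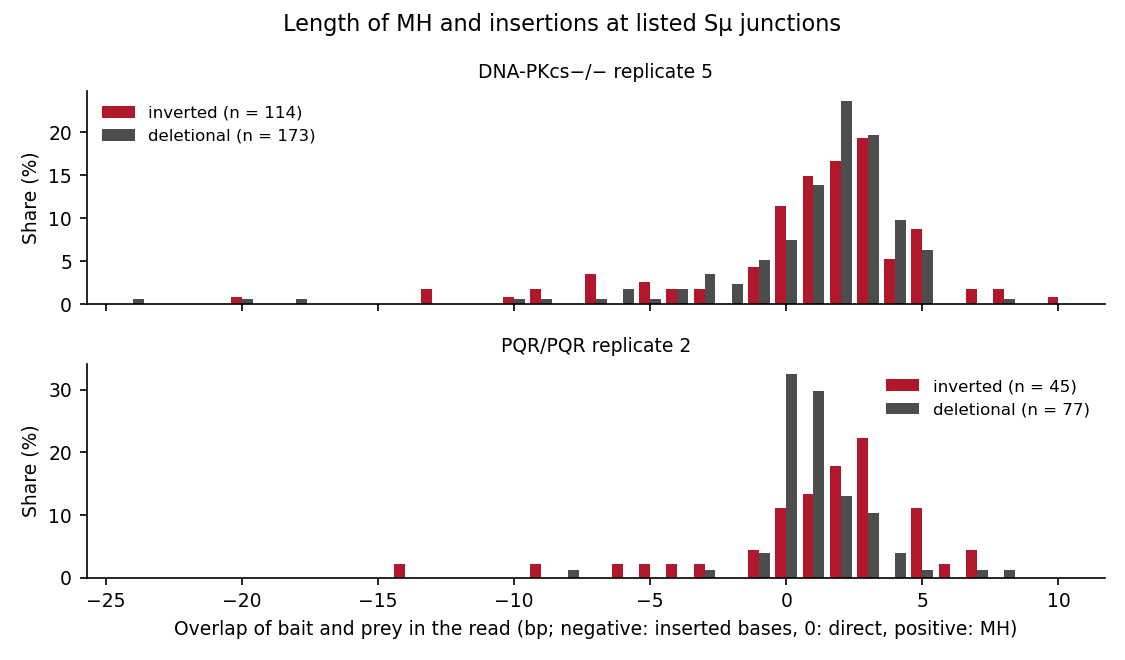
Share of listed Sμ junctions in percent by overlap of bait and prey in the read, in bp, with inserted bases as negative values, direct joins at 0 and MH as positive values, for inverted (red) and deletional (grey) junctions of the 2 libraries with a list. In PQR/PQR replicate 2 deletional joins peak at 0 (25 of 77) and inverted joins at 3 bp (10 of 45), which is 7 of 38 against 8 of 2 bp without the shared junctions.

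The DNA-PKcs-/- pool holds more inverted junctions than its library, and direct joins were fewer in it. Outside replicate 5 it had 6.77% direct inverted joins (80 of 1182, 5.47 to 8.34), 20.9% with MH of 4 bp or more (18.7 to 23.3) and 21.7% with an insertion (19.4 to 24.1). Its deletional joins had 9.52% direct (196 of 2058), and in the whole pool the direct share of inverted minus deletional joins was -2.19 points (adjusted Fisher's exact p = 0.0433), where replicate 5 had 3.89 points. The pool also had 4.69 points more insertions among inverted joins (adjusted exact p = 0.00164). Both tests treat the pool as a single sample, although its reads came from several sequencing runs. They also count repeated junctions each time. Outside replicate 5, among listed junctions with the bait's usual first base, 36 of 1129 inverted ones repeated an earlier bait end and prey. Among deletional ones 73 of 2010 did. In the authors' PQR/PQR pool 16.2% of inverted and 28.0% of deletional junctions were direct (24 of 148 and 179 of 640), and 21.6% and 5.16% had an MH of 4 bp or more (32 of 148 and 33 of 640).

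The listed reads of the DNA-PKcs-/- pool outside replicate 5 came from several sequencing runs and first 6 bases, and 5 such groups of reads held 20 or more inverted junctions. Over these groups the inverted share of Sμ ranged from 26.3% to 55.1% and upstream preys from 0 to 45.5% of inverted ones. Direct inverted joins ranged from 0 to 8.15%, MH of 4 bp or more in inverted joins from 17.7% to 25.0%, and insertions from 13.0% to 35.0%. In 5 of 5 groups direct joins were more frequent among deletional than among inverted junctions, and in 3 of 5 the longer MH was more frequent among inverted ones. The groups are not labelled as libraries or mice, and the smaller 3 of them held 20, 23 and 27 inverted junctions. The group with 27 had the sequencing run and the first 6 bases of replicate 5, so it may not be separate material. It gave both the 55.1% inverted share and the 0 upstream preys. Over the remaining groups the inverted share ranged from 26.3% to 39.0% and upstream preys from 27.7% to 45.5%.

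On either side of the bait the joins of the pool differed. Outside replicate 5, inverted joins upstream of their own bait end had an insertion in 30.0% (102 of 340, 25.4 to 35.1) and an MH of 4 bp or more in 13.2% (45 of 340, 10.0 to 17.3). Those downstream had 17.9% (141 of 788, 15.4 to 20.7) and 24.4% (192 of 788, 21.5 to 27.5). In replicate 5 both sides had insertions in 19.5% (8 of 41) and 19.2% (14 of 73), and the longer MH was at 17.1% (7 of 41) and 19.2% (14 of 73). Direct joins were 8 of 41 upstream and 5 of 73 downstream there, against 21 of 340 and 55 of 788 in the pool outside it. These splits were made after the data had been seen and were not tested.

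Median bait ends lay within a few bases of each other in both orientations, while single bait ends were spread more widely. Those of inverted junctions ran from 114669049 to 114669227 in DNA-PKcs-/- replicate 5 and from 114669109 to 114669226 in PQR/PQR replicate 2. The median bait end of inverted junctions was 114669200 in DNA-PKcs-/- replicate 5 and 114669199 in PQR/PQR replicate 2, against 114669196 and 114669203 for deletional ones. The bait end fell inside the palindrome in 33.3% (38 of 114) and 24.4% (11 of 45) of inverted and in 32.4% and 27.3% of deletional junctions. Aligned preys were shorter among inverted junctions, with a median of 96.5 and 74 bp against 106 and 103 bp, and 25.4% (29 of 114) and 33.3% (15 of 45) were under 50 bp, against 20.3% and 19.5%. With preys under 50 bp left out, the direct share of inverted minus deletional joins in PQR/PQR replicate 2 was -23.8 points (adjusted Fisher's exact p = 0.0514). The AflII site CTTAAG was present in 7.02% of inverted reads of DNA-PKcs-/- replicate 5 (8 of 114) and 6.67% of PQR/PQR replicate 2 (3 of 45), against 23.2% in the DNA-PKcs-/- pool outside replicate 5.

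AGCT, a palindromic tetramer of switch repeats and a preferred target of AID, was looked for in the first 20 bases of the prey. Of the inverted preys, 36 of 114 held it in DNA-PKcs-/- replicate 5 (31.6%, 23.8 to 40.6) and 16 of 45 in PQR/PQR replicate 2 (35.6%, 23.2 to 50.2). Deletional preys held it in 41.6% (72 of 173) and 58.4% (45 of 77). All windows of the same length along the same preys held it in 36.8% and 58.3% for inverted, and in 48.7% and 70.9% for deletional preys. In neither orientation was the share at the join above that of all windows. The windows were pooled over preys, so long preys count for more there than at the join. This comparison was not tested and cannot tell whether joins favour or avoid AGCT.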

How the data were processed

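The authors deposited, per library and per genotype pool, whole-number counts of junctions by region, strand and join class, lists of prey positions, and lists of single junctions with alignment bounds. Bowtie2 and mm9 are named in the submitters' processing notes, and how junctions were called and filtered is not given in the sources used here. No annotation in mm9 was used. From the alignment bounds, shared read bases of bait and prey were counted as MH, abutting bounds as a direct join and bases between the bounds as an insertion. These classes equalled the count sheets in both listed libraries. The list of the DNA-PKcs-/- pool holds 1289 of its 1296 inverted Sμ junctions. Shares have Wilson 95% intervals and differences Newcombe intervals. Libraries were compared by two-sided Fisher's exact tests with Benjamini-Hochberg adjustment over 21 tests between and 21 within libraries (SciPy 1.17.1), at a threshold of 0.05. A difference between genotypes was called when it passed in the same direction against both PQR/PQR libraries. The tests were checked on simulated data. Positions named are the 3 leading bins of 500 bp per library and those with 3 or more inverted junctions, and further shared positions were chosen after their values were seen. The junctions described, the measures and the tests were chosen with earlier results of these data known. Alternatives left out a library, used the pools, and changed the MH length, distance, reference point, denominator and prey length.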

Additional observations from a re-analysis of the deposited data

Results flagged for a closer look

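In long MH the gap between inverted and deletional Sμ joins differed between DNA-PKcs-/- replicate 5 and PQR/PQR replicate 1, both read in the same sequencing run. MH of 4 bp or more was 1.66 points more frequent among inverted joins in the former and 17.7 points in the latter, a difference of -16.1 points, with a Zelen's exact p of 0.00815 adjusted over 9 tests. Without the shared inverted junctions, with the 7 preys of PQR/PQR replicate 1 at shared positions all taken to have long MH, it was -11.9 points and no longer passed (adjusted exact p = 0.0671). Against PQR/PQR replicate 2 the same difference was -8.33 points, with an adjusted exact p of 0.434. No sample could stand out within its group, since a group had at most 2 libraries.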

How the results depend on the processing

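Of 173 alternative values for 28 results, 53 could not move or were identical to the main value. Most of these counted repeated junctions once or left a library out of a comparison within another. The lists of DNA-PKcs-/- replicate 5 and PQR/PQR replicate 2 held no junction repeated in bait end and prey. PQR/PQR replicate 1, without a list here, was kept as counted. Of the other 120, 96 kept their direction and their side of the threshold, 15 changed direction, 6 passed where the main value did not and 3 no longer passed. All values are differences in percentage points. Leaving out a PQR/PQR library in turn gave 2.84 to 21.1 for the inverted share (called without PQR/PQR replicate 2), -5.84 to 0.292 for direct joins and -4.57 to 0.643 for MH of 4 bp or more between libraries. With the authors' PQR/PQR pool the inverted share differed by 20.9, and inverted preys were within 1000 bp more often than deletional ones by 21.1, both called; 0 of the 182 deletional preys that the pool adds lie within 1000 bp. With the DNA-PKcs-/- pool long MH differed by 0.296 and preys within 1000 bp by -1.42 between libraries, and within DNA-PKcs-/- inverted minus deletional was -2.19 for direct joins and 4.69 for insertions, both called. Preys of 50 bp or more gave 0.784, 11.2 and -0.196 for direct joins, long MH and insertions between libraries, -3.09 for insertions within DNA-PKcs-/- replicate 5, and -23.8 for direct joins within PQR/PQR replicate 2, no longer called. Without the shared inverted junctions, an alternative chosen after seeing the data, long MH differed by 5.36 and insertions by -0.492 between libraries, long MH within DNA-PKcs-/- replicate 5 was -0.875, and direct joins within PQR/PQR replicate 2 were -19.3, no longer called. MH from 2 bp gave -5.73 within DNA-PKcs-/- replicate 5 and 26.6 within PQR/PQR replicate 2, now called. Leaving insertions out of the denominator gave -12.6 for direct joins within PQR/PQR replicate 1, no longer called. A distance of 2000 bp gave -2.80 between libraries, one of 500 bp gave -0.724 within PQR/PQR replicate 1, and each junction's own bait end gave 23.3 within PQR/PQR replicate 2, now called. The causes were not tested. The excess of inversion in the whole Sμ window over Sγ1 and Sε kept its call with the pools and without the shared inverted junctions. Without these junctions it was 16.2 and 25.4 in PQR/PQR replicate 2, which had no other alternative that could move it. PQR/PQR replicate 2, with 45 inverted junctions, limits what could be detected. No paired analysis was possible because the groups share no replicate number.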
